A study of Mus musculus with 15 samples.

Results

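The comparison described here set type II alveolar epithelial (AT2) cells from resolving mouse lungs depleted of regulatory T cells (Tregs) against AT2 cells from resolving lungs in which Tregs were present. Its members follow the group labels and are 10 of the 15 arrays of the series, 5 in each group. They were chosen with earlier results of these data known. The Treg-depleted cells came from Foxp3DTR mice, which carry a diphtheria toxin receptor gene at the Foxp3 locus so that toxin kills their Tregs. The Tregs-present cells came from Foxp3EGFP mice, whose Tregs carry a green fluorescent reporter and are kept. Both strains are on the C57BL/6 background, were aged 8 to 12 weeks, and had received bacterial lipopolysaccharide into the trachea at 3 mg/kg, 7 days before the cells were taken. The remaining 5 arrays were control AT2 cells of C57BL/6 mice, which here served mainly to estimate the spread; the protocol names all 3 strains as given lipopolysaccharide, so what sets control apart is not clear. In every group endothelial (CD31+) and blood (CD45+) cells were removed, and CD326+ MHCII+ CD104- CD24- T1a- cells were sorted.

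Genotype changed together with Treg depletion, so the 2 cannot be told apart. The labels do not say whether the Foxp3EGFP mice were also given toxin, nor whether the arrays come from separate mice. The p-values therefore reflect only how far the samples of a group lie apart, which may be technical. A second line of the description speaks of Tregs as the profiled cells, and in 3 of the 5 Treg-depleted arrays it names splenic Tregs. The table could not settle this: 0 of 14 AT2 markers and 0 of 10 T cell and Treg markers, Foxp3 among them, were among the measured genes, so neither the cell type nor the depletion could be checked.

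AT2 cells are cuboidal cells of the air sacs. They make and recycle pulmonary surfactant, a film rich in phospholipid that keeps the air sacs from collapsing, and after injury they divide and give rise to the flat type I cells that line the gas exchange surface. Tregs are T cells that carry the transcription factor Foxp3. They restrain inflammation, and in the injured lung they also release growth factors, such as amphiregulin, that act on epithelium. The question of the comparison is whether AT2 cells in a healing lung differ when Tregs are missing.

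The arrays were Affymetrix Mouse Gene 2.1 ST, and values are log2 after RMA (robust multi-array average). Only the first 324 of 31351 rows of the deposited table hold measurements, and these carry 323 gene symbols, of which 173 lay above the array's median in at least 5 arrays and were tested. Most measured rows lie near the floor of the scale, where the medians of the 10 resolving arrays ranged from 2.25 to 2.39. Genes with a mean over the 15 arrays above 4 are called expressed below, and 46 of the 173 tested genes met this. The term describes the value of the row only. Rps28, a ribosomal protein gene, had a mean of 3.04 and Adam10 of 3.24, so neither met it. By name, 13 of the 46 are established genes and 33 are predicted genes, cDNA clones or other provisional entries. RefSeq's annotation of GRCm38.p6 held 16 of the 46 gene numbers, 11 as protein coding and 3 as long noncoding RNAs. Correlations between resolving arrays over the 46 genes were 0.946 to 0.978 within a group and 0.930 to 0.976 between the groups, so these ranges overlapped nearly whole.

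No gene passed the test between the resolving groups, and what the arrays give instead is a limit on how large a difference could have been. None of the 46 expressed genes reached an adjusted p under 0.05 in limma, against a background of 0% of the 173 tested genes. At an unadjusted p under 0.05 there were 7 of the 46, and 14 of all 173 (8.09%); by the exact two-sided permutation test over the 10 arrays there were 6 and 9. The measured difference had a median size of 0.27 log2 units among expressed genes, while the half-width of the 95% interval had a median of 0.41 and ran from 0.24 to 0.60. A difference of the median size was therefore smaller than the median uncertainty.

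The lower end of the 95% interval stood above -1 in 46 of 46, so that for each of these 46 genes, in this fit, a fall of 2-fold or more with Tregs depleted lay outside the interval. A rise of 2-fold or more lay outside it for 43 of 46. The 3 exceptions were the predicted genes Gm19816 and Gm7265 and the clone D130062J21Rik, for which the interval reached a 2.43-fold, 2.17-fold and 2.09-fold rise.

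The same reading was made at tighter limits. Differences of 1.5-fold in either direction lay outside the interval for 18 of the 46 genes, and differences of 1.25-fold for 2. By direction, a fall of 1.5-fold was outside for 42 genes and a rise of 1.5-fold for 22, the asymmetry going with the larger number of positive differences. Over all 173 tested genes the counts were 167 at 2-fold and 127 at 1.5-fold, a higher share than among expressed genes, with a median SD of 0.19 for Tregs depleted and 0.17 for Tregs present against 0.29 and 0.27 in the expressed genes. All these folds are ratios of the row's array value, and how far they track mRNA amounts was not tested. These intervals hold gene by gene. When they were widened to hold jointly over all 173 genes (Bonferroni), a 2-fold difference was excluded for 15 of the 46, and a 2-fold fall alone for 42.

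**Figure D1:**
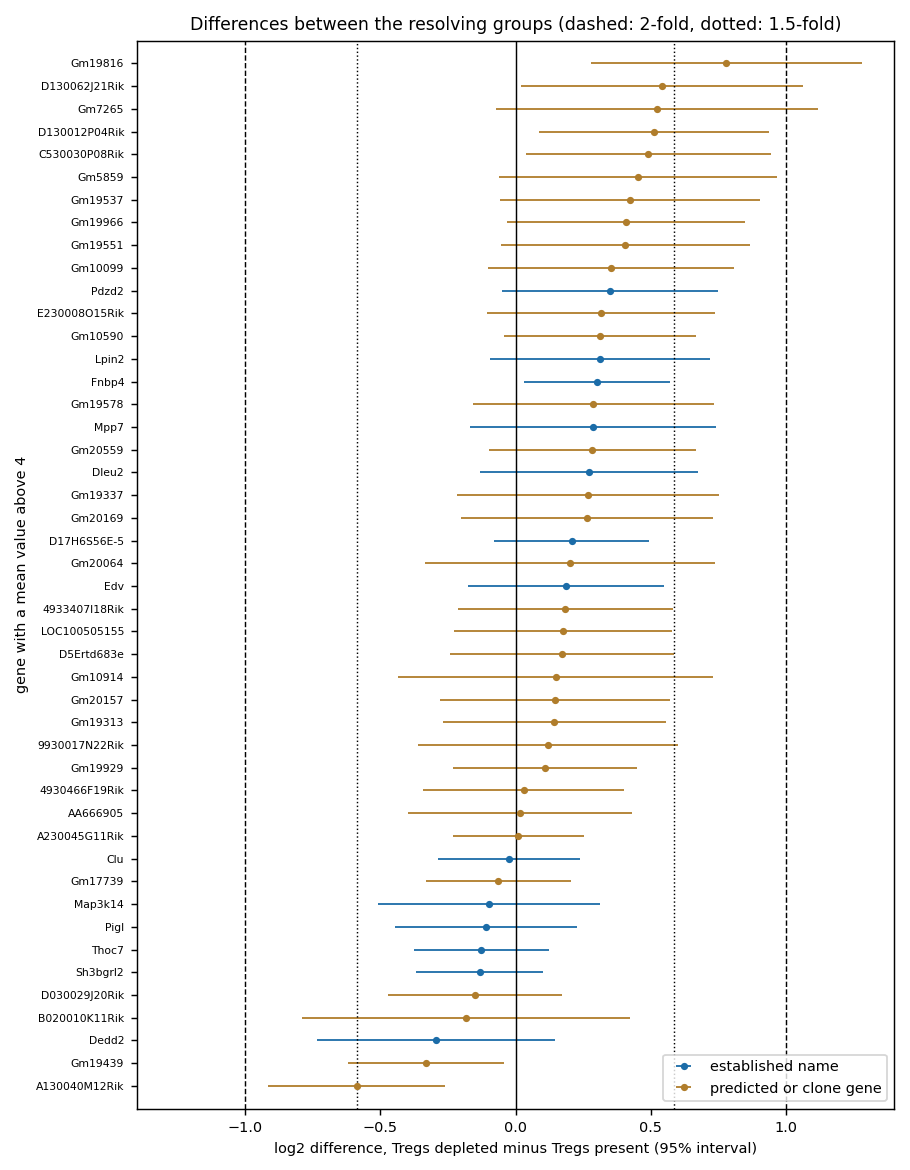
Log2 difference of the 46 expressed genes, Tregs depleted minus Tregs present, as points with 95% intervals from limma; dashed lines mark 2-fold, dotted lines 1.5-fold, and colour separates established from provisional names. Every interval stays to the right of the lower 2-fold line, and 3 cross the upper one.

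The exclusion depends on taking the deposited normalization as it is. After a further quantile normalization of the measured rows, 45 of the 46 intervals lay within 2-fold, and 44 of the 46 re-estimated differences lay inside the intervals given here. This step replaces each value by one set by its rank among the 324 rows of its array. With it the median difference of the 46 moved from 0.19 to 0.04, so more than the few highest genes shifted. The part of rank exchanges among the highest genes was not tested. The 2 re-estimated differences outside the intervals were those of Clu and D17H6S56E-5, described next.

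Clu encodes clusterin, a secreted chaperone and a marker of AT2 cells in transition after injury. It read 9.10, 8.60, 8.75, 8.78 and 8.53 in the 5 Treg-depleted arrays and 8.81, 8.64, 8.68, 8.96 and 8.79 in the 5 Tregs-present arrays. The groups overlapped fully, with the Treg-depleted arrays holding both the highest and the lowest value. The difference was -0.02 (95% interval -0.29 to 0.24), which excludes a rise above 1.18-fold and a fall beyond 1.22-fold with Tregs depleted, the tightest limit of the 13 established genes when the wider of both directions is taken. Control arrays stood at 7.63 ± 0.21 (SD, n = 5), below all 10 resolving arrays. On the quantile-normalized scale the difference was -0.37 (-0.69 to -0.05, adjusted p = 0.441 in limma), so the tightness of this limit depends on the normalization. A 2-fold difference was excluded either way. The rank of Clu changed between arrays. It lay above C530030P08Rik in Tregs-present replicates 1 and 3 (8.56 and 8.49 for C530030P08Rik) and below it in every Treg-depleted array. In Treg-depleted replicate 2 it lay below Edv (8.71). The part of these rank changes in the shift was not tested.

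D17H6S56E-5, a protein-coding gene by RefSeq, was the expressed gene with the widest separation of control from resolving cells. With Tregs depleted it read 7.83, 7.64, 8.01, 7.84 and 7.73, and with Tregs present 7.59, 7.53, 7.28, 8.03 and 7.58. All but 1 of the Tregs-present arrays lay below the lowest Treg-depleted value, and replicate 4 lay above the highest. The difference of 0.21 (-0.08 to 0.49) excludes a rise above 1.41-fold and a fall beyond 1.06-fold. After quantile normalization it was -0.10 (-0.41 to 0.21), with the sign turned, and the excluded fall widened accordingly. The 5 controls read 5.35 to 5.65, below all 10 resolving arrays.

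Lpin2 encodes lipin 2, a phosphatidate phosphatase that supplies diacylglycerol for the synthesis of triglyceride and phospholipid. Its values were 8.24, 8.49, 8.16, 7.86 and 8.33 with Tregs depleted and 7.35, 8.33, 7.33, 8.33 and 8.19 with Tregs present. In the Tregs-present group replicates 1 and 3 stood about a log2 unit below the other three, which lay within the Treg-depleted range. The SD was 0.52 there against 0.24 with Tregs depleted. The difference was 0.31 (-0.10 to 0.72, adjusted p = 0.697), so a rise above 1.64-fold and a fall beyond 1.07-fold were excluded. Quantile normalization brought it to 0.05 (-0.13 to 0.23). Of the 18 genes listed for fatty acid and phospholipid synthesis, Lpin2 was the only 1 measured.

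Edv is annotated as an endogenous sequence related to the Duplan murine retrovirus, and its row joins more than 1 transcript cluster of the array. It read 8.08, 8.71, 8.19, 8.01 and 7.88 with Tregs depleted and 7.72, 8.16, 7.66, 7.87 and 8.54 with Tregs present. The highest 2 values were those of Treg-depleted replicate 2 and Tregs-present replicate 5, and the groups overlapped. The difference of 0.19 (-0.18 to 0.55) excludes a rise above 1.46-fold and a fall beyond 1.13-fold. It moved with those highest arrays and was 0.05 without Treg-depleted replicate 2 and 0.32 without Tregs-present replicate 5.

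**Figure D2:**
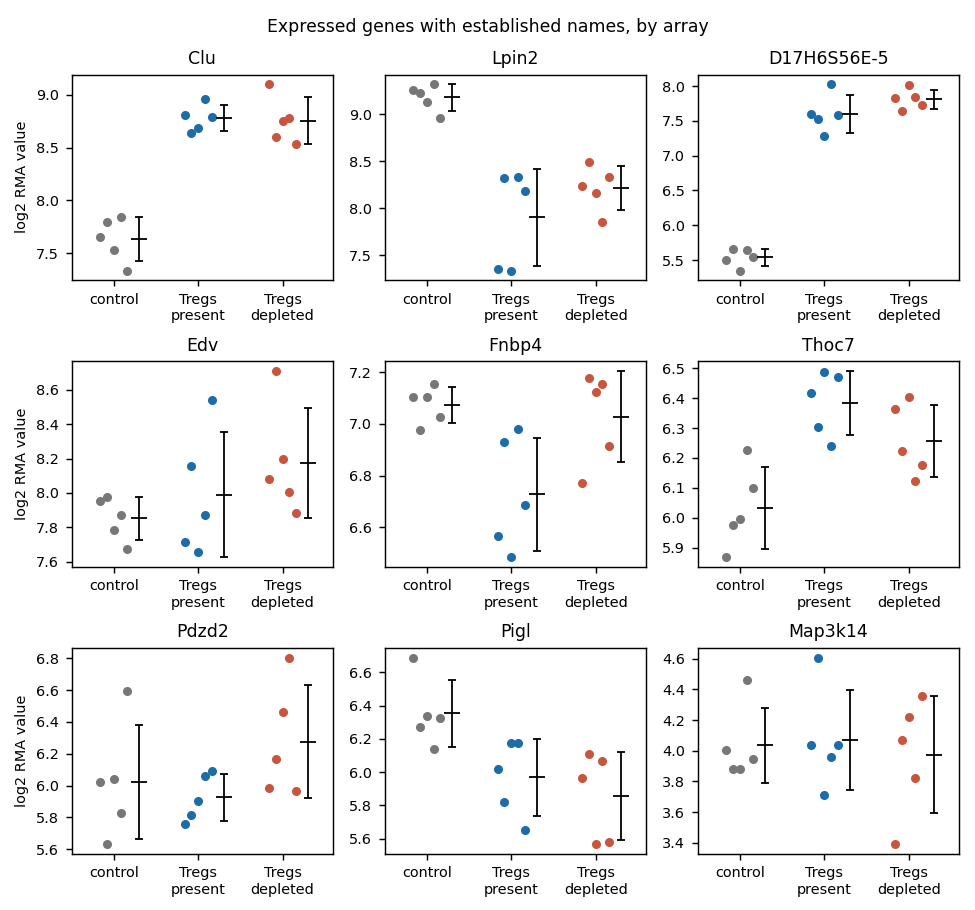
Log2 RMA values of 9 expressed genes with established names in each of the 15 arrays, with the mean and SD of each group of 5 beside the points; the vertical scale differs between panels and does not start at 0. The resolving groups overlap in all 9 panels, and control stands apart from both for Clu, Lpin2 and D17H6S56E-5.

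Thoc7 encodes a subunit of the THO complex, which couples transcription to the export of mRNA from the nucleus. With Tregs depleted it read 6.36, 6.22, 6.40, 6.12 and 6.18, and with Tregs present 6.42, 6.30, 6.49, 6.24 and 6.47. The Treg-depleted arrays lay somewhat lower, in largely overlapping ranges. The difference was -0.13 (-0.38 to 0.12), which excludes a rise above 1.09-fold and a fall beyond 1.30-fold. On the quantile-normalized scale it was -0.28 (-0.58 to 0.02).

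Fnbp4, which encodes a formin-binding protein with WW domains, was the only one of the 13 established expressed genes whose interval did not reach 0. Its values were 6.77, 7.18, 7.12, 7.15 and 6.92 with Tregs depleted and 6.56, 6.93, 6.48, 6.98 and 6.69 with Tregs present. Treg-depleted replicates 2, 3 and 4 exceeded all Tregs-present arrays, and the other two did not. The difference was 0.30 (0.03 to 0.57), a ratio of 1.23, and did not pass (unadjusted p = 0.0314, adjusted p = 0.527 in limma). A rise above 1.49-fold was excluded. The value was 0.32 after quantile normalization, and 0.24 to 0.36 when any single resolving array was left out. Controls stood at 7.07 ± 0.07 (SD, n = 5).

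Dleu2 is a long noncoding RNA that hosts the microRNAs miR-15a and miR-16-1, which restrain the cell cycle. It read 4.57, 4.75, 5.04, 5.22 and 5.37 with Tregs depleted and 4.63, 5.07, 4.55, 5.05 and 4.31 with Tregs present. The lowest array belonged to the Tregs-present group and the highest to the Treg-depleted group, with overlap between. The difference of 0.27 (-0.13 to 0.67) excludes a rise above 1.60-fold and a fall beyond 1.10-fold. Quantile normalization gave 0.10 (-0.26 to 0.46).

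Pdzd2, which encodes a protein with several PDZ domains, had the largest difference of the 13 established expressed genes. It read 5.99, 6.16, 6.46, 6.80 and 5.97 with Tregs depleted and 5.76, 5.82, 5.90, 6.06 and 6.09 with Tregs present. Replicates 3 and 4 of the Treg-depleted group carried much of the distance, and its SD was 0.36 against 0.15. The difference was 0.35 (-0.05 to 0.75, adjusted p = 0.591), excluding a rise above 1.68-fold and a fall beyond 1.03-fold. The quantile-normalized value was 0.16 (-0.23 to 0.55).

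Mpp7 encodes a scaffold of the MAGUK family that takes part in epithelial polarity and tight junction assembly. Its 5 Treg-depleted values were 4.60, 5.16, 4.59, 4.53 and 4.26, and its 5 Tregs-present values 4.71, 4.48, 3.99, 4.47 and 4.07. The ranges overlapped over most of their length. At 0.29 (-0.17 to 0.74) a rise above 1.67-fold and a fall beyond 1.12-fold were excluded. It was 0.08 (-0.32 to 0.47) once quantile-normalized.

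Pigl encodes an enzyme of an early step in the synthesis of glycosylphosphatidylinositol anchors, which hold proteins on the cell surface. It read 5.97, 6.11, 5.57, 6.07 and 5.58 with Tregs depleted and 6.02, 5.82, 6.18, 6.18 and 5.65 with Tregs present, again with wide overlap. Its difference was -0.11 (-0.44 to 0.23), so a rise above 1.17-fold and a fall beyond 1.36-fold were excluded. Quantile normalization moved it to -0.34 (-0.65 to -0.04, adjusted p = 0.441 in limma).

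Sh3bgrl2, a member of a family of small thioredoxin-like proteins, had the narrowest interval of all 46 genes. Its Treg-depleted values of 4.31, 4.23, 4.32, 4.19 and 4.39 and its Tregs-present values of 4.39, 4.31, 4.35, 4.48 and 4.57 overlapped and all lay between 4.19 and 4.57. The difference was -0.13 (-0.37 to 0.10), which excludes a rise above 1.07-fold and a fall beyond 1.29-fold. After quantile normalization it was -0.33 (-0.64 to -0.03, adjusted p = 0.441 in limma), so the tight limit on a fall depends on the normalization.

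The signalling and cell death genes were Map3k14 and Dedd2. Map3k14 encodes NIK, the kinase at the head of the noncanonical NF-kB pathway, and was the only measured gene of 15 listed for NF-kB signalling. It read 3.39, 4.07, 4.22, 3.82 and 4.36 with Tregs depleted and 4.04, 4.61, 3.71, 3.96 and 4.04 with Tregs present. Replicate 1 of the Treg-depleted group was the lowest of the 10, and the groups otherwise covered the same range. The difference was -0.10 (-0.51 to 0.31), so that a rise above 1.24-fold and a fall beyond 1.42-fold were excluded. With quantile normalization it was -0.28 (-0.69 to 0.14). Its mean of 4.03 over the 15 arrays places it just inside the expressed genes.

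Dedd2 encodes a DNA-binding protein with a death effector domain, linked to apoptosis. With Tregs depleted it stood at 4.43, 4.48, 4.07, 3.82 and 4.02, and with Tregs present at 4.45, 4.72, 4.15, 4.67 and 4.31. Treg-depleted replicates 3, 4 and 5 lay below every Tregs-present array. It had the largest negative difference of the 13 established expressed genes, -0.30 (-0.74 to 0.14, adjusted p = 0.707), with a rise above 1.11-fold and a fall beyond 1.67-fold excluded. After quantile normalization the difference was -0.56 (-0.95 to -0.16) and again did not pass.

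The 6 expressed genes with the largest measured differences were all predicted or clone entries by name. Their ranking comes from the contrast itself, so their sizes are the extremes of 46. After quantile normalization the differences were 0.60 for Gm19816, -0.61 for A130040M12Rik and 0.47 for D130062J21Rik. They were 0.39 for Gm7265, 0.31 for D130012P04Rik and 0.21 for C530030P08Rik.

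Gm19816 had the largest. It read 5.39, 6.33, 5.74, 5.59 and 5.44 with Tregs depleted and 4.54, 5.22, 4.79, 5.45 and 4.59 with Tregs present. Only replicate 4 of the Tregs-present group reached into the Treg-depleted range. The difference was 0.78 (0.28 to 1.28), a ratio of 1.72 that did not pass (adjusted p = 0.252 in limma), with an exact permutation p of 0.0238 (0.666 after Benjamini-Hochberg adjustment over the 173 genes). Over all 28 alternatives the adjusted p stayed between 0.0725 and 0.619. No 2-fold rise could be excluded for this gene in any of them.

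A130040M12Rik had the largest difference in the other direction and the lowest unadjusted p of all genes tested. Its values were 6.46, 6.50, 6.63, 7.10 and 6.94 with Tregs depleted, 7.32, 7.45, 7.03, 7.33 and 7.44 with Tregs present, and 7.29 to 7.92 in control. The other Treg-depleted arrays lay below the lowest Tregs-present value of 7.03, while replicate 4, at 7.10, lay above it. The difference was -0.59 (-0.92 to -0.26), a ratio of 0.665, with an unadjusted p of 0.00147 and an adjusted p of 0.252 in limma; its exact permutation p was 0.0159 (0.666 adjusted). It passed, at an adjusted p of 0.0384, when only the 46 expressed genes were tested, and its adjusted p over all 28 alternatives ran from 0.0384 to 0.531. An increase of any size lay outside the 95% interval, and so did a fall beyond 1.89-fold. The row joins 2 transcript clusters.

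D130012P04Rik was the only expressed gene whose groups did not overlap, 1 of 46 against 3 of 173 genes tested (1.73%). It read 4.72, 5.18, 4.73, 5.14 and 4.71 with Tregs depleted and 4.54, 4.55, 4.05, 4.55 and 4.24 with Tregs present. The gap between the groups, from 4.55 to 4.71, was small beside the SD of 0.24 and 0.23. The difference was 0.51 (0.09 to 0.94), with an adjusted p of 0.527 in limma and an exact permutation p of 0.00794, the smallest that 5 against 5 arrays allow (0.458 adjusted). On the quantile-normalized scale its interval, -0.0052 to 0.62, reached 0.

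The remaining members of the 6 were measured higher with Tregs depleted. For D130062J21Rik, which read 3.90 to 4.72 with Tregs depleted and 3.18 to 4.53 with Tregs present, the difference was 0.54 (0.02 to 1.06). C530030P08Rik, the most strongly expressed of the 46, spanned 9.15 to 9.77 and 8.49 to 9.85 and differed by 0.49 (0.04 to 0.94). Gm7265, which RefSeq lists as a synonym of the ubiquitin ligase gene Nedd4, spanned 5.41 to 6.52 and 4.89 to 6.26 and differed by 0.52 (-0.07 to 1.12). In all 3 the groups overlapped, and no adjusted p in limma was below 0.527.

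**Figure D3:**
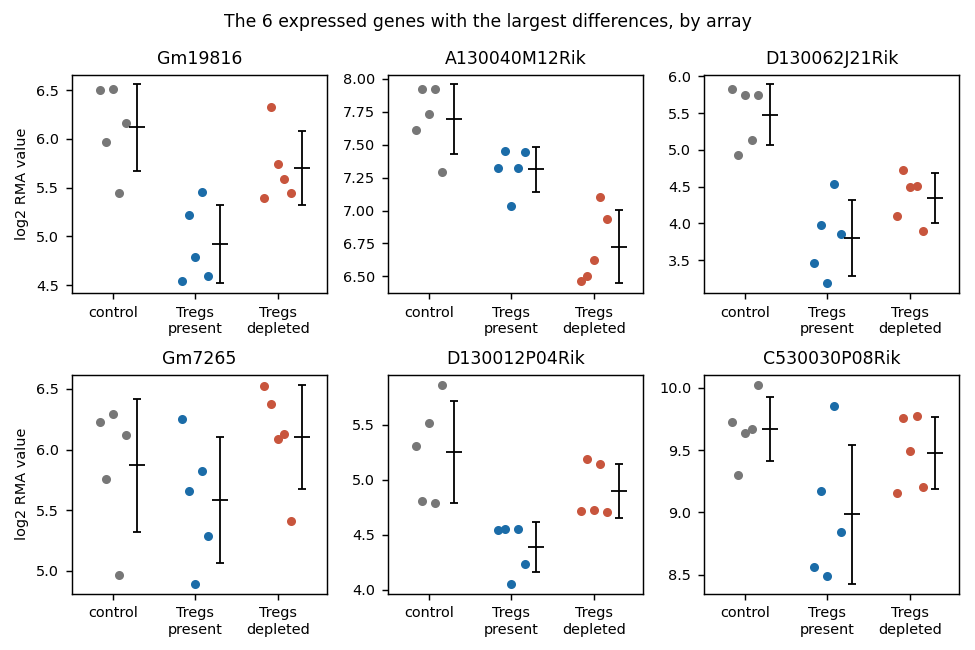
Log2 RMA values of the 6 expressed genes with the largest differences between the resolving groups, in each array, with group means and SDs (n = 5); the vertical scale differs between panels and does not start at 0. The Treg-depleted points lie below the Tregs-present ones for A130040M12Rik apart from 1 array, and mostly above them in the other panels.

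The narrowest intervals after Sh3bgrl2 belonged to A230045G11Rik, a long noncoding RNA, then Thoc7 and Clu. A230045G11Rik read 7.00 to 7.20 with Tregs depleted and 7.00 to 7.38 with Tregs present, and its interval of -0.23 to 0.25 is the tightest around 0 of all 46, excluding a rise above 1.19-fold and a fall beyond 1.18-fold. At the other end were B020010K11Rik, Gm7265, Gm10914 and Gm20064, with half-widths of 0.60, 0.60, 0.58 and 0.54. B020010K11Rik spanned 3.29 to 4.78 with Tregs depleted and 3.37 to 4.93 with Tregs present, so that its small difference of -0.18 came with an interval from -0.79 to 0.42. Gm10914 differed by 0.15 (-0.44 to 0.73) and Gm20064 by 0.20 (-0.34 to 0.74).

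**Figure D4:**
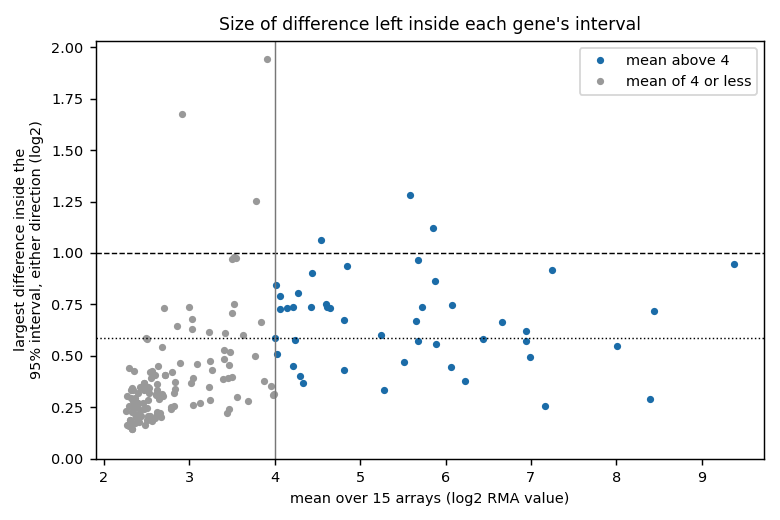
For each of the 173 tested genes, the mean over 15 arrays on the horizontal axis and, on the vertical axis, the largest difference in either direction that its 95% interval still holds (log2); dashed and dotted lines mark 2-fold and 1.5-fold, and the vertical line the mean of 4. Of the expressed genes 3 lie above the 2-fold line, and Lcp2 and Trim30a are the highest 2 points below a mean of 4.

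The spread was similar in both groups. The SD was larger with Tregs depleted for 23 of the 46 expressed genes and for 97 of all 173 tested, and its median over the 46 was 0.29 and 0.27. Some arrays took a large share of the extremes. Treg-depleted replicate 2 was the highest of its group for 22 of the 46 genes and replicate 1 the lowest for 19. With Tregs present, replicate 4 was the highest for 18 and replicate 3 the lowest for 21.

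More expressed genes were measured higher than lower with Tregs depleted, 35 against 11, with a median difference of 0.19. Among the 173 tested genes the split was 102 against 71, with a median of 0.02. The 33 predicted and clone genes held most of the excess, with 28 higher and 5 lower (median 0.20), against 7 and 6 among the 13 established genes (median 0.19). Genes on one array share its deviations, so these counts are a description and not a test. The mean over the 33 genes was 5.02 to 5.45 in the Treg-depleted arrays and 4.80 to 5.28 in the Tregs-present arrays, with overlap, and 5.36 to 5.86 in control. Over the 13 established genes it was 6.12 to 6.29, 5.90 to 6.25 and 5.99 to 6.09. After quantile normalization the split of the 46 was 27 against 19, and the median difference 0.04; 38 of the 46 kept their sign. That normalization gives every array the same distribution over the measured rows, so it shrinks a shift common to these genes by construction. The part of array-wide shifts in this split was not tested.

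**Figure D5:**
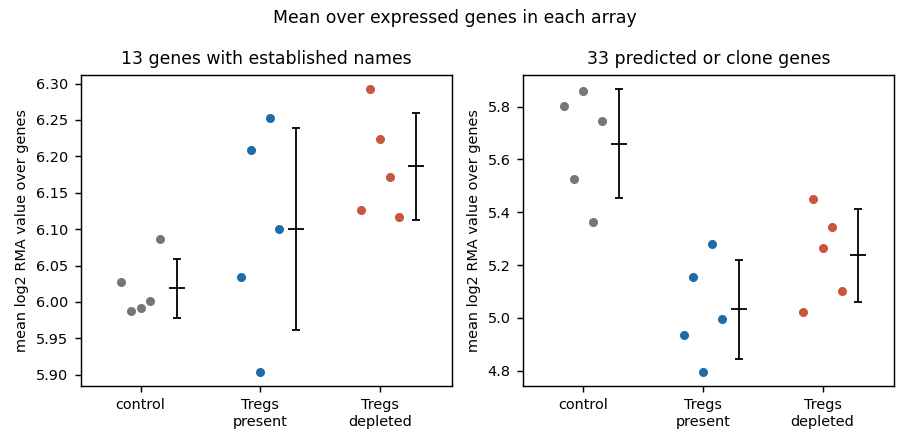
Mean log2 RMA value of each array over the 13 established (left) and the 33 predicted or clone genes (right) among the expressed genes, with group means and SDs over 5 arrays; the vertical axes differ and do not start at 0. The resolving groups overlap in both panels, and for predicted and clone genes the control arrays, at 5.36 to 5.86, overlap the top of the Treg-depleted range of 5.02 to 5.45 and lie above every Tregs-present array.

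For scale, the same 46 genes were compared with control. Both comparisons share arrays with the one above, so their values are set side by side only. The median size of the difference from control was 0.54 for the Tregs-present group and 0.40 for the Treg-depleted group; between the resolving groups it was 0.27. Of the 46 expressed genes, 22 passed with Tregs present (16.2% of all 173 did) and 14 with Tregs depleted (11% of all 173). For Clu the changes from control were 1.15 and 1.12, for D17H6S56E-5 2.06 and 2.27, and for Lpin2 -1.28 and -0.97. For Gm19816 they were -1.20 (adjusted p = 0.00127) with Tregs present and -0.42 (adjusted p = 0.301) with Tregs depleted. The difference between these last 2 values is the one of 0.78 tested above, and it did not pass.

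Of the 162 genes in 14 fixed lists, 8 were measured. The lists for AT1 cells, endothelium, fibroblasts, airway epithelium, macrophages and neutrophils, proliferation, and repair ligands had none. The leukocyte list had 4 of its 10 genes. Lcp2 (SLP-76), which relays signals from antigen receptors in T cells and from receptors of myeloid cells, read 2.75, 3.37, 3.64, 3.50 and 7.07 with Tregs depleted and 2.85, 3.80, 3.58, 4.33 and 3.58 with Tregs present. Treg-depleted replicate 5 stood more than 3 log2 units above the rest of its group. The difference was 0.44 with an interval of -1.06 to 1.94, so neither a doubling nor a halving was excluded, and without that array it was -0.31 (-1.47 to 0.84). Nckap1l spanned 2.24 to 2.49 and 2.30 to 2.64 in the 2 groups, Slamf6 2.35 to 2.43 and 2.25 to 2.66, and Rcsd1 2.03 to 2.67 over all 15 arrays, so 3 of the 4 stayed near the floor in every array. Such values describe these rows and do not show that leukocyte transcripts were absent.

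Trim30a, an interferon-induced gene and the only measured one of 21 in its list, had a mean of 2.91 and so was not among the expressed genes. It read 2.61, 2.62, 2.89, 3.90 and 4.85 with Tregs depleted and 2.41 to 2.58 with Tregs present. The controls read 3.87, 2.21, 2.34, 3.44 and 2.45, so high values also occurred in control replicates 1 and 4. Against control the Treg-depleted group differed by 0.51 (adjusted p = 0.425 in limma). The resolving groups did not overlap, but the gap between 2.58 and 2.61 was narrow and Treg-depleted replicates 4 and 5 carried the distance. The difference was 0.87 (0.07 to 1.67, adjusted p = 0.527 in limma), and without Treg-depleted replicate 5 it was 0.50 (-0.16 to 1.16). The same array held the high Lcp2 value; whether leukocyte RNA had a part in either was not tested.

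The limit of 4 was not sharp. Just above it stood D5Ertd683e and Gm19966, with differences of 0.17 (-0.24 to 0.59) and 0.41 (-0.03 to 0.85). Just below stood Gm19409 and the zinc finger gene Zscan30, with differences of 0.00 (-0.31 to 0.31) and 0.03 (-0.25 to 0.31).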

How the data were processed

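Values were deposited by the authors on the log2 scale in a workbook and in a value table, which held the same numbers in the measured rows. RMA, Affymetrix Expression Console and Partek appear in the submitters' processing notes; their versions and a genome build are not given there, and coordinates are left out. After row 324 all 31027 further rows lie, in every array, on a straight line by row number to within 4.4e-13 and were not used. All 15 value columns were used. For arrays their number limits the precision.

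Each symbol was represented by its row with the highest mean. limma 3.58.1 (R 4.3.3; eBayes with a mean-variance trend) fitted a mean for every group, over 15 arrays and 173 genes, with Benjamini-Hochberg adjustment over all of them. Intervals are 95% confidence intervals of that model, and 2-fold is 1 log2 unit. Single genes were also tested by exact permutation over 252 assignments. The fit was also run on simulated data, but the outcome is not given here and is not used as support. The members, the gene lists and the rule for named genes were chosen with earlier results of these data known. Named were all expressed genes with an established symbol, the 6 largest differences, the 4 narrowest and 4 widest intervals, genes without overlap, those next to the limit of 4, and measured list genes.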

Additional observations from a re-analysis of the deposited data

Results flagged for a closer look

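Of 64 groups of 5 values (31 named genes and the mean over expressed genes, in each resolving group), 4 held an array far from the other four, where chance gives about 1 in 20. Lcp2 was 7.07 in Treg-depleted replicate 5 against 2.75 to 3.64 in the others. D5Ertd683e was 3.49 in Treg-depleted replicate 1 against 3.84 to 3.97. A230045G11Rik was 7.38 in Tregs-present replicate 2 against 7.00 to 7.10, and Gm20064 was 4.43 in Tregs-present replicate 4 against 3.58 to 3.83.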

How the results depend on the processing

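The count of 0 genes passing held in 27 of 28 alternatives, among them an ordinary linear model. The exception, testing only the 46 expressed genes, gave 1 gene, A130040M12Rik, with fewer genes to adjust over. The number of expressed genes whose interval lay within 2-fold was 39 to 45 when single arrays were left out, and 36 of the 46 stayed within it in all 28 alternatives; within 1.5-fold there were 12 to 19 (11 when each group had its own spread, by Welch intervals, and 25 under quantile normalization), and 32 to 36 of the 46 were higher with Tregs depleted. Leaving out 1 array gave 0 genes passing each time. Signs of some differences turned. Quantile normalization turned 8 of the 46 expressed genes: 7 predicted or clone genes, of which Gm10590 moved from 0.31 to -0.023, and D17H6S56E-5 (-0.10); it also turned Gm19409 (-0.15) and Zscan30 (-0.18), which lie below the limit of 4. Array weights turned Zscan30 (-0.0014). Control 4 and Treg-depleted 5, which held the highest Lcp2 values, were left out together, a choice made after seeing the data. The named genes that then turned were Clu (0.031), Gm19409 (-0.052) and Lcp2 (-0.31). With 1 array left out the named genes that turned were A230045G11Rik (-0.018 to 0.079), B020010K11Rik (-0.39 to 0.0051), Clu (-0.11 to 0.031), Gm10914 (-0.038 to 0.27), Gm19409 (-0.085 to 0.089), Lcp2 (-0.31 to 0.77), Map3k14 (-0.19 to 0.048) and Zscan30 (-0.054 to 0.089). The alternatives that gave each group its own spread or left out control arrays were also chosen after seeing the data. A replicate block by array number also gave 0 genes passing. Equal numbers were not taken as pairs: residuals of the 5 same-numbered pairs correlated at 0.0033 to 0.33 (median 0.29), 3 of them over 0.1, against a median of -0.013 in the 20 other pairs, and for 6 of the 10 arrays the best match was the array of equal number, as a hint from the data only.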
